A study of Mus musculus with 6 samples.

Results

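The 10 genes described here encode the mouse machinery that places peptides on MHC class I molecules: the light chain B2m, the heavy chains H2-K1 and H2-D1, the peptide transporter subunits Tap1 and Tap2, tapasin (Tapbp), the inducible proteasome subunits Psmb8, Psmb9 and Psmb10, and the transactivator Nlrc5. They were chosen by symbol, and each of the 10 symbols matched 1 of the 19730 rows of the expression table. RNA-Seq was performed on primary mouse mesangial cells, which hold the capillary loops of the kidney glomerulus together and contract like smooth muscle. Of 6 libraries, 3 came from Control cells and 3 from cells given TGF-β1, a secreted cytokine that drives scarring, at 10 ng/ml for 72 h. Both groups shared the medium (25.5 mM glucose, 20% foetal bovine serum) and came from passage 3 to 6. The mouse strain, and so the MHC haplotype, was not stated in the sources used here, nor was any vehicle for the Control cells or whether the libraries of a group were separate cultures. The p-values therefore measure the spread between libraries, which may be technical. The comparison asks which of these genes differ after TGF-β1 treatment.

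MHC class I molecules display fragments of the cell's own proteins to CD8+ T cells. The proteasome cuts proteins into peptides, the TAP transporter carries the peptides into the endoplasmic reticulum, and tapasin holds an empty heavy chain with its B2m partner at the transporter until a peptide fits. Interferon-γ induces most of the pathway, in part through IRF1, and NLRC5 acts with the RFX complex at the promoters of the heavy chain, B2m, TAP1 and PSMB9 genes. TGF-β is known as an inhibitor of interferon responses in many immune cells.

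In these cells the pathway was expressed very unevenly, and no tested member passed the threshold for a change with TGF-β1. The light chain transcript averaged 985 FPKM in Control, the classical heavy chains 24.7 and 18.1, and 2 of the 3 inducible proteasome subunits and Nlrc5 below 1. FPKM is the number of fragments per kilobase of transcript, divided by the depth of the library. Of the 10 genes, 7 reached the mean of 1 FPKM required for testing, and none of the 7 was called changed by limma at an adjusted p under 0.05, where 48.1% of all 11898 tested genes were. At an unadjusted limma p under 0.05 the count was 1 of 7, H2-D1. Adjustment never lowers a p-value, so at least 48.1% of all tested genes also passed that unadjusted threshold. The largest change among the 7 was -0.24 on the log2(FPKM + 1) scale, and every 95% interval of the 7 lay within 2-fold on that scale. Nlrc5, tested without the filter, was called lower after treatment on a handful of fragments.

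The libraries held 10.12 to 11.04 M mapped fragments, as recovered from the steps between low FPKM values under an assumed fragment length of 200 nt. Between libraries of a group, Pearson's r of log2(FPKM + 1) across genes lay between 0.876 and 0.940, and between libraries of different groups from 0.818 to 0.853. Replicate 2 of both groups deviated from its group mean in a shared way (r across genes 0.232, the highest of the 9 pairs of a Control and a TGF-β1 library), so values without replicate 2 are also given below. Of the mesangial markers, 5 were tested, with 3 up and 1 down (80%, where 48.1% of all tested genes were called). Cspg4 and Rgs5 were called up without the filter on low genes, where 30.5% of all genes were called. Rgs5 averaged 0.0864 FPKM in Control and 0.250 after TGF-β1, and its call was lost in 11 of 18 other settings. Acta2 (997 to 3887 FPKM on average), Tagln (512 to 1756) and Vim (2191 to 3436) were the 3 tested markers called up. Pdgfrb (37.5 to 29.2) was called down, a call lost in 9 of 18 other settings, and Gata3 was not called. Des, Itga8, Pdgfra and Thy1, also listed as mesangial markers, averaged at most 0.271 FPKM in either group.

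Members of the pathway differ in their upstream sequence, and 4 stretches are shown because they carry the motifs through which the regulators of class I genes act. They are taken from the RefSeq promoter windows on mouse build GRCm38.p6, which hold 250 bases before and 50 bases after an annotated start site and cover 8 of the 10 genes. No window was given for Tap2 or Nlrc5. Each is written 5′ to 3′ on the strand of its gene, the shared stretch between Tap1 and Psmb9 on the strand of Tap1. Capitals mark the motifs searched on both strands: the interferon-stimulated response element (ISRE, bound by IRF proteins), the NF-κB site, the Y box ATTGG (bound by NF-Y, read as CCAAT on the opposite strand) and the X2 site core TGACG (bound by CREB and ATF proteins). The gamma-activated site TTCNNNGAA, an element of interferon-γ responses, was searched too. The runs of 10 capitals are the ISRE in B2m and the NF-κB site in H2-K1 and H2-D1, and no searched motif overlaps another in these stretches. The positions are chr2:122147437-122147686 (+) for B2m, chr17:34000334-34000583 (-) for H2-K1, chr17:35262844-35263093 (+) for H2-D1 and chr17:34187331-34187555 (+) for the stretch between Tap1 and Psmb9.
B2m: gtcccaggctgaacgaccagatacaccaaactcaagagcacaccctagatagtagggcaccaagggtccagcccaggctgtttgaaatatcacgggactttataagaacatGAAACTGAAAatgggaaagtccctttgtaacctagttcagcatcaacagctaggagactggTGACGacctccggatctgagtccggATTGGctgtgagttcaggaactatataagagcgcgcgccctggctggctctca
H2-K1: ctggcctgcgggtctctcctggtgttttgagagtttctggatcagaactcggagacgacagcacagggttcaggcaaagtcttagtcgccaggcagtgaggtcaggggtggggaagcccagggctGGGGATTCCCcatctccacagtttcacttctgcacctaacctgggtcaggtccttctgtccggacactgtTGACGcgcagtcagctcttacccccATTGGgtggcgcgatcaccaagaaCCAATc
H2-D1: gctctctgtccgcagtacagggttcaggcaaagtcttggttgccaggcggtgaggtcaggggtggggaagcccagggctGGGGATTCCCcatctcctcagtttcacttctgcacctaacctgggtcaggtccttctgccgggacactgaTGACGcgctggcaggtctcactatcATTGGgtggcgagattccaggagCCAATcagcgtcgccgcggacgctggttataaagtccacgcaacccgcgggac
Tap1-Psmb9: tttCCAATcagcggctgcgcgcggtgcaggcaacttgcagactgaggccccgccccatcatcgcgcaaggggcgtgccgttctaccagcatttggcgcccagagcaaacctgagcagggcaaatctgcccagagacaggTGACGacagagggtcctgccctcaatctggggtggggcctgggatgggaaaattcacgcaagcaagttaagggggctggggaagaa

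The ISRE was found in B2m alone of the 8 genes, at position -139 from the start site, and in 3.44% of all 32851 windows. The NF-κB site was searched as a fixed run of letters, without variant forms. That run was found in H2-K1 and H2-D1 and in 0.107% of all windows. This share is that of the run of letters and not of NF-κB sites in general. Enrichment in the heavy chain genes was not tested. Among the letters searched, the order upstream of both heavy chain genes was the same, an NF-κB site, then an X2 core and a Y box. Of 203 aligned bases, 177 (87.2%) were identical. For H2-K1, which has 2 annotated start sites, the downstream one was used here. The start sites of Tap1 and Psmb9 lie 226 bases apart on opposite strands, so their windows overlap and share 1 Y box and 1 X2 core. A Y box was found in 6 of the 8 genes (37.4% of all windows), an X2 core in 5 (20.8%) and the gamma-activated site in Psmb8 alone (8.30%). The window of Psmb10 held none of the 5 motifs. A match describes the letters in a window and does not show that a factor binds there.

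**Figure D1:**
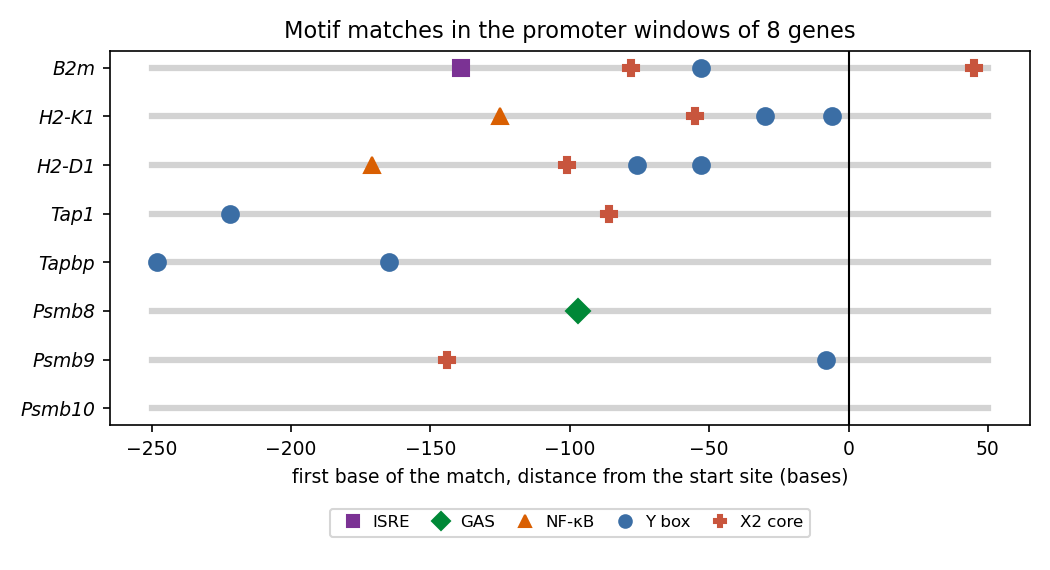
Motif matches in the promoter windows of 8 of the 10 genes, with the distance of the first base of each match from the annotated start site in bases on the x axis and 1 grey line per window. The NF-κB letters searched appear in H2-K1 and H2-D1 alone, the ISRE letters searched in B2m alone, and Psmb10 has no match. Variant forms of these sites were not searched.

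B2m lies on chromosome 2 (121973422 to 121978819 on mm9, plus strand) and encodes β2-microglobulin, the invariant light chain without which heavy chains do not reach the surface. Its FPKM was 947, 881 and 1126 in Control replicates 1 to 3 and 1048, 1140 and 1078 in TGF-β1 replicates 1 to 3. Control replicate 3 lay among the treated libraries, so the groups overlapped. B2m averaged 985 ± 126 in Control and 1089 ± 47.0 after treatment (SD, n = 3), a log2 change of 0.15 with a 95% interval of -0.14 to 0.44 (limma, adjusted p = 0.339). In Control cells this level was above that of 98.9% of tested genes, and it rested on 6432 to 8022 fragments per library. Patl2 covers the whole B2m gene on the opposite strand, and whether the strand of a read was used is not stated.

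H2-K1 (chromosome 17, 34132962 to 34137278, minus strand) and H2-D1 (chromosome 17, 35399675 to 35404444, plus strand) encode the classical heavy chains, the peptide-binding chain of the molecule. H2-K1 stood at 26.2, 24.5 and 23.4 FPKM in Control and at 26.9, 25.1 and 27.5 FPKM after TGF-β1. These ranges overlapped, and the log2 change was 0.10 with an interval of -0.09 to 0.29 (limma, adjusted p = 0.338). H2-D1 stood at 17.5, 20.0 and 16.8 FPKM in Control and at 15.7, 15.2 and 14.4 FPKM after TGF-β1. Every treated library was below every Control library, as in 59.4% of tested genes, and H2-D1 was the only one of the 7 tested members with this separation. The change in H2-D1 was -0.24 (95% interval -0.46 to -0.02), with an unadjusted limma p of 0.0372 and an adjusted p of 0.0716. It therefore missed the threshold, and over 18 other settings its adjusted p ran from 0.0117 to 0.237.

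The ratio of H2-K1 to H2-D1 FPKM within a library was 1.495, 1.22 and 1.40 in Control and 1.72, 1.65 and 1.90 after TGF-β1. These values did not overlap, but the ratio was looked at after the expression values were seen and was not tested. H2-K1 and H2-D1 are close relatives, and 9.07% and 14.3% of their 50-base stretches also occur in other annotated genes. Stretches of H2-K1 were shared most with H2-D1, H2-Q2 and H2-T23, and those of H2-D1 with H2-Q2, H2-Q7 and H2-Q6. Reads from these stretches may have been divided between genes, so both levels are uncertain to that extent. B2m FPKM exceeded the sum of both heavy chains 19.8 to 28.1 times in Control and 24.6 to 28.3 times after TGF-β1. The heavy chains are highly polymorphic and the haplotype of the cells is not stated, and what mapping to the reference haplotype does to these levels and ratios was not tested.

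**Figure D2:**
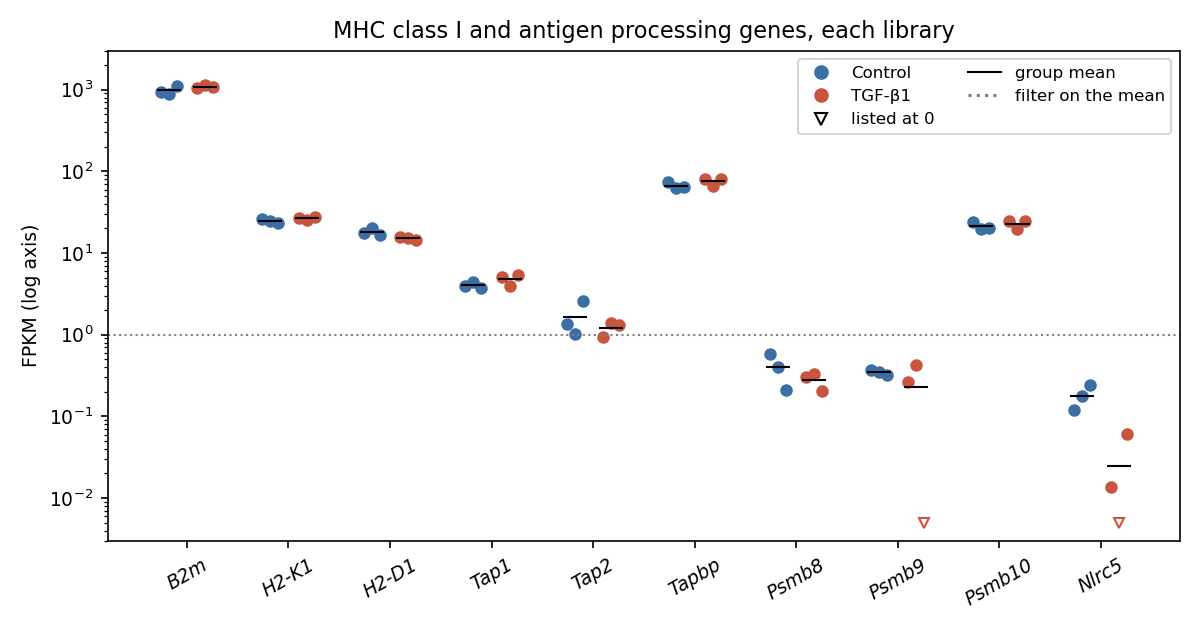
FPKM on a log axis for each of the 10 genes in each library, with Control in blue, TGF-β1 in red, group means as bars, values listed at 0 as open triangles and the mean of 1 FPKM required for testing as a dotted line. B2m lies between 881 and 1140 FPKM, Psmb8, Psmb9 and Nlrc5 lie below 1, and the groups separate in H2-D1 and Nlrc5 only.

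Tap1 (chromosome 17, 34324498 to 34334170) and Tap2 (34340472 to 34353266, both plus strand) encode the 2 subunits of the transporter. Tap1 was measured at 3.97, 4.38 and 3.73 FPKM in Control and at 5.05, 3.95 and 5.38 FPKM after TGF-β1. TGF-β1 replicate 2 fell inside the Control range while the other 2 treated libraries lay above it. The log2 change in Tap1 was 0.20 (95% interval -0.11 to 0.51, limma adjusted p = 0.243), and within replicates 1 and 3 alone it was 0.36 (adjusted p = 0.0728).

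Tap2 was the least abundant tested member, at 1.34, 1.01 and 2.57 FPKM in Control and 0.936, 1.41 and 1.32 FPKM after TGF-β1. Control replicate 3 stood above the other 5 libraries. The log2 change was -0.21 with the widest interval of the 7 tested members, -0.78 to 0.36 (limma, adjusted p = 0.490), and it turned to 0.03 without Control replicate 3. Tap1 exceeded Tap2 1.45 to 4.34 times in Control and 2.80 to 5.40 times after TGF-β1. Tap1 overlaps Psmb9 at their shared promoter end, and 2 predicted genes overlap Tap2 on the opposite strand.

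Tapbp (chromosome 17, 34052844 to 34066235, plus strand) encodes tapasin, which bridges the transporter and the empty heavy chain. Its FPKM was 74.0, 62.0 and 63.8 in Control and 81.1, 66.5 and 79.9 after TGF-β1. The ranges overlapped through TGF-β1 replicate 2, and the log2 change was 0.18 (95% interval -0.09 to 0.46, limma adjusted p = 0.230). Tapbp thus stood 14.2 to 18.6 times above Tap1 in every library. The row names a transcript of 413 nt, whereas the gene has 6 annotated transcripts, so the level of Tapbp may depend on which of them the value covers. Zbtb22 overlaps Tapbp by 3421 bases on the same strand, and 12 of the 364 50-base stretches of the named transcript also occur in Zbtb22.

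The inducible subunits Psmb8, Psmb9 and Psmb10 replace the constitutive catalytic subunits Psmb5, Psmb6 and Psmb7 to form the immunoproteasome, which favours peptides that fit class I molecules. Psmb8 and Psmb9 lie beside Tap1 and Tap2 (chromosome 17, 34334666 to 34338399 and 34318932 to 34324697), and Psmb10 lies on chromosome 8 (108459628 to 108462292). On the opposite strand, Gm16156 covers the whole Psmb10 gene and Gm20496 overlaps part of Psmb8. Psmb10 was present at 23.8, 19.5 and 20.2 FPKM in Control and at 24.9, 19.5 and 24.6 FPKM after TGF-β1. The lowest library of each group was replicate 2, and the groups overlapped. The log2 change in Psmb10 was 0.11 (95% interval -0.20 to 0.42, limma adjusted p = 0.499), and without replicate 2 it was 0.17 (adjusted p = 0.311).

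Psmb8 was listed at 0.581, 0.406 and 0.208 FPKM in Control and at 0.307, 0.334 and 0.207 FPKM after TGF-β1. Psmb9 was listed at 0.374, 0.347 and 0.325 FPKM in Control and at 0.263, 0.428 and 0 FPKM after TGF-β1. Both groups overlapped in each gene. On the named transcripts the values correspond to at most 3.95 fragments in a library for Psmb8 and 4.94 for Psmb9. On the longest annotated transcripts they correspond to at most 10.96 and 11.63. In the fit without the filter, in which 30.5% of 19730 genes were called, neither was called (limma, log2 change -0.12 and -0.15, adjusted p = 0.477 and 0.456). The annotation holds a second Psmb9 model at the same place that shares 99.9% of its 50-base stretches, while the table has 1 row for Psmb9.

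Set against the constitutive subunits, the immunoproteasome transcripts were uneven. Psmb10 amounted to 18.1%, 15.3% and 18.1% of Psmb7 in Control and to 17.4%, 12.9% and 16.5% after TGF-β1. Psmb8 amounted to 0.409%, 0.503% and 0.164% of Psmb5 in Control and to 0.142%, 0.333% and 0.0919% after TGF-β1. Psmb9 amounted to 0.197% to 0.247% of Psmb6 in Control, and to 0.141%, 0.290% and 0% after TGF-β1. The difference of log2 ratios was -0.15 for Psmb10 to Psmb7 (exact permutation p = 0.5, adjusted 0.5) and -0.98 for Psmb8 to Psmb5 (exact permutation p = 0.2, adjusted 0.4; both two-sided, adjusted over 2 ratios). The ratio of Psmb9 to Psmb6 was not tested because 1 library was listed at 0, and 3 libraries against 3 cannot reach a p below 0.1. The denominator Psmb5 varied as well, as it stood at 142, 80.7 and 127 FPKM in Control and at 216, 100.4 and 226 FPKM after TGF-β1, lowest in replicate 2 of each group. Psmb5 was not called (limma, log2 change 0.58, adjusted p = 0.236), but it was with replicate 2 as a batch term (adjusted p = 0.00979), with the replicate block (adjusted p = 0.0215), within replicates 1 and 3 alone and without TGF-β1 replicate 2.

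**Figure D3:**
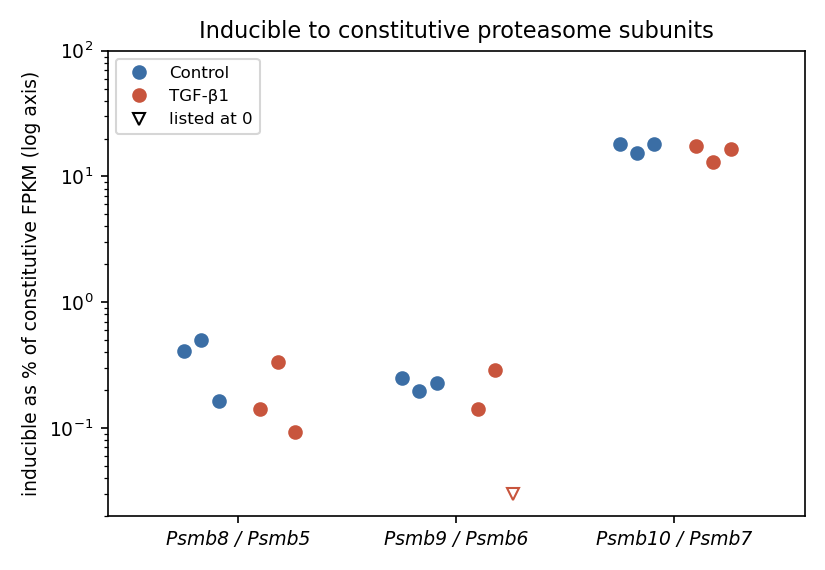
FPKM of each inducible proteasome subunit as a percentage of the constitutive subunit it replaces, on a log axis, with 1 point per library (Control blue, TGF-β1 red, 0 as an open triangle). Psmb10 sits between 12.9% and 18.1% of Psmb7, while Psmb8 and Psmb9 stay at or under 0.503% of their partners.

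Nlrc5 (chromosome 8, 96996663 to 97051172, plus strand) encodes the transactivator of class I genes and is annotated as a long noncoding RNA in the gene set used here. It was listed at 0.118, 0.178 and 0.243 FPKM in Control and at 0.0135, 0 and 0.0605 FPKM after TGF-β1. All treated libraries lay below all Control libraries, which made Nlrc5 the second of 2 among the 10 genes with separated groups, against 44.1% of all 19730 genes. In the fit without the filter Nlrc5 was called lower (limma, log2 change -0.20, SE 0.05, adjusted p = 0.0362). The values came out as 2, 3 and 4 fragments in Control and as 0.23, 0 and 1 fragments after TGF-β1 on its 1727 nt transcript, and on the 6945 nt transcript that the row names they would be at most 17.7. Both groups are near the limit of detection, so no fold is given. The call was lost in 11 of 17 other settings, including the fits without Control replicate 2 or 3 or without any single TGF-β1 replicate, and its adjusted p ran from 0.0244 to 0.189.

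In order of Control FPKM the 10 genes ran B2m, Tapbp, H2-K1, Psmb10, H2-D1, Tap1, Tap2, Psmb8, Psmb9 and Nlrc5. The Control ranges of H2-K1 and Psmb10, of Psmb10 and H2-D1, and of Psmb8 and Psmb9 overlapped, and no other neighbours in that order did. After TGF-β1 the means kept this order, the ranges of H2-K1, Psmb10 and H2-D1 were apart from each other, and Psmb9 overlapped both Psmb8 and Nlrc5. The 5 of 7 tested members with a positive change were B2m, H2-K1, Tap1, Tapbp and Psmb10, and the median change of the 7 was 0.11, beside -0.02 over all tested genes. Within replicates 1 and 3 alone, B2m (0.04), H2-K1 (0.13), H2-D1 (-0.17), Tap2 (-0.45) and Tapbp (0.23) kept their direction and none was called. The median size of the change, sign ignored, was 0.18 for the 7 members and 0.40 for all tested genes. The median SE was 0.12 for the members and 0.13 for all tested genes, so the members were measured about as precisely as other genes.

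**Figure D4:**
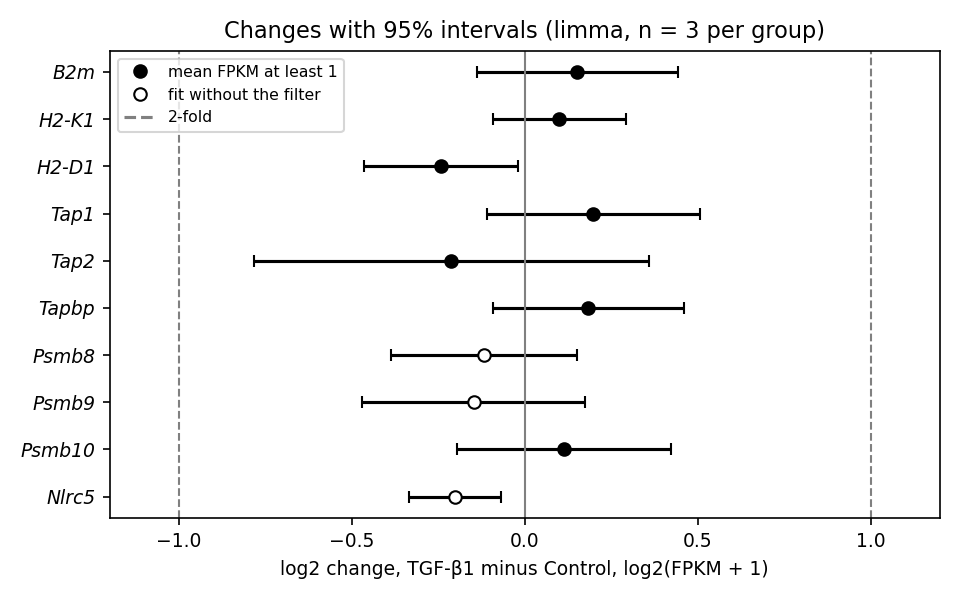
Log2 change (TGF-β1 minus Control, log2(FPKM + 1)) of the 10 genes with 95% intervals from limma, n = 3 per group, filled where the gene passed the mean of 1 FPKM and open where it came from the fit without that filter. All intervals lie inside the dashed 2-fold lines, and those of H2-D1 and Nlrc5 leave out 0. The open genes, Psmb8, Psmb9 and Nlrc5, lie below 1 FPKM, where even a fall to 0 could not reach 2-fold on this scale. For these genes the lines therefore do not bound the fold change in FPKM.

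These directions depend on the scaling of the libraries. Rescaling to the summed FPKM of protein-coding genes of at least 300 nt moved the median of all genes from -0.02 to -0.19, and the calls from 2911 up and 2810 down to 2015 up and 3927 down. Under it the 7 members had a median change of -0.07, still above that of all genes, and B2m, H2-K1, Tapbp and Psmb10 turned negative (-0.044, -0.088, -0.0086 and -0.074). H2-D1 was then called lower (limma, log2 change -0.43, adjusted p = 0.0117), and none of the other 6 was called under any of the 18 settings.

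Among other class I and class I-like chains, which include nonclassical heavy chains and relatives with other ligands, 10 were tested, with 6 down and none up (60%, median change -0.47). These and the shares and medians of the lists that follow stand beside 48.1% called and a median of -0.02 over all tested genes. The count was 4 without TGF-β1 replicate 1 and 3 within replicates 1 and 3. Fcgrt, the neonatal Fc receptor that recycles IgG and pairs with B2m, fell from 48.1 ± 3.06 to 13.6 ± 3.44 FPKM (SD, n = 3; limma, log2 change -1.78, SE 0.19, adjusted p = 5.57e-04). Cd1d1, which presents lipids to NKT cells, fell from 6.93 ± 0.468 to 2.94 ± 0.104 FPKM (limma, log2 change -1.01, adjusted p = 2.92e-04). Hfe, a regulator of iron uptake, was also called down (-0.71), as were H2-Q6 (-0.82), H2-M5 (-0.58, not without TGF-β1 replicate 1) and H2-T23 (-0.36, not without TGF-β1 replicate 1 or 3). H2-T23 encodes Qa-1, the ligand of an inhibitory receptor of NK cells. The other 4, H2-T22, H2-T24, H2-M3 and Mr1, were not called, with changes of 0.23, 0.23, 0.09 and -0.16. All but Fcgrt in this list were named after their values were seen, and the H2-Q, H2-T and H2-M genes share sequence with each other as the classical chains do.

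Of 13 tested genes for loading and trimming, 7 were up and 1 was down (61.5%, median change 0.45). Within replicates 1 and 3 alone 5 were up and 0 down, and Pdia3 was not called there. Canx, the calnexin that folds new heavy chains, rose from 106 ± 7.09 to 218 ± 19.8 FPKM (SD, n = 3; limma, log2 change 1.03, SE 0.10, adjusted p = 3.78e-04). Named after their values were seen, Calr and Pdia3, partners of tapasin in the loading complex, rose by 0.71 and 0.73, and Erap1, which trims peptides in the endoplasmic reticulum, by 0.78. Calr, Canx and Pdia3 serve the folding of many glycoproteins and are not particular to class I. The 1 gene down was Npepps, a cytosolic aminopeptidase (-0.36, adjusted p = 0.0396 by limma), and that call held without Control replicate 3 but not without any other single library.

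Of 5 tested proteasome activators and assembly genes, 2 were up and 1 was down (60%, median change 0.36), and within replicates 1 and 3 alone 0 were up and 1 was down. Psme1 encodes the PA28α subunit of the interferon-inducible activator and fell from 292 ± 33.5 to 189 ± 18.2 FPKM (limma, log2 change -0.62, SE 0.12, adjusted p = 0.00622). Its partner Psme2, PA28β, went from 115 ± 23.8 to 146 ± 12.0 FPKM and was not called (0.36, adjusted p = 0.127). The ratio of Psme1 to Psme2 was 2.03, 2.22 and 3.75 in Control and 1.23, 1.35 and 1.31 after TGF-β1. That ratio was not tested. Psme4, which encodes PA200, rose by 0.45 (limma, adjusted p = 0.0084), a call lost within replicates 1 and 3 alone. Of the 3 constitutive catalytic subunits, Psmb7 was called up (33.3%; 0.26, adjusted p = 0.0485), a call that 17 of 18 other settings did not make, among them each fit without 1 library. Psmb6 was not called (0.15, adjusted p = 0.391).

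Regulators of class I genes were called in both directions. Of 15 tested, 2 were up and 6 down (53.3%, median change -0.21), and 5 were called without Control replicate 1, Control replicate 3 or TGF-β1 replicate 1. Irf1, the transcription factor that activates class I promoters, rose from 11.6, 17.2 and 12.4 FPKM to 26.0, 20.6 and 22.8 FPKM (limma, log2 change 0.73, SE 0.16, adjusted p = 0.0121). Irf2, which binds the same element and was named after its values were seen, fell by 0.65 (limma, adjusted p = 0.00348). Rfx1, the largest fall in the list, went from 6.42 ± 1.31 to 3.63 ± 1.04 FPKM (-0.69, limma adjusted p = 0.0375), and its call was lost without Control replicate 1 or 3 and without TGF-β1 replicate 1 or 2. Rfx5, a subunit of the RFX complex, stood at 4.66 ± 0.994 FPKM in Control and 3.73 ± 0.411 FPKM after TGF-β1 and was not called (limma, log2 change -0.25, adjusted p = 0.216). Of the other subunits of that complex, both named after their values were seen, Rfxank fell from 6.87 ± 0.576 to 4.18 ± 0.0444 FPKM (limma, log2 change -0.60, adjusted p = 0.00244) and Rfxap was not called (-0.16, adjusted p = 0.211). B2m, whose window holds the ISRE shown above, was not called, and whether Irf1 acts on B2m in these cells was not tested.

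Interferon signalling genes changed in both directions, with 2 up and 4 down of 13 tested (46.2%, median change -0.07). Both chains of the interferon-γ receptor rose. Ifngr1 went from 104 ± 12.2 to 221 ± 13.6 FPKM (limma, log2 change 1.08, SE 0.11, adjusted p = 4.43e-04) and Ifngr2, named after its values were seen, from 32.5 ± 1.52 to 62.5 ± 4.03 FPKM (0.92, adjusted p = 2.80e-04). Socs3, a feedback inhibitor of cytokine receptors, fell from 14.4 ± 0.544 to 4.96 ± 1.47 FPKM (-1.40, limma adjusted p = 0.0017). Of other genes that interferon-γ induces, 7 were tested, with 1 up and 3 down (57.1%, median change -0.27), but only 1 or 2 were called without any single library other than Control replicate 3. The adhesion molecule Vcam1 fell by 1.41 (limma, adjusted p = 2.71e-04) and the GTPase Irgm1 rose by 0.30 (adjusted p = 0.0253), the latter not called without any single library other than Control replicate 3.

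MHC class II is the pathway for proteins taken up from outside. Ciita, its master regulator, has 2 rows, both at most 0.130 FPKM. Named after their values were seen, the invariant chain Cd74 was at most 0.637 FPKM in any library, while H2-DMa and H2-DMb1, subunits of the editor that exchanges class II peptides, averaged 2.74 and 7.01 FPKM in Control and were not called (limma, log2 change -0.15 and -0.13). Of 3 tested class II presentation genes 1 was up (33.3%), Ifi30, a lysosomal thiol reductase, from 137 ± 8.79 to 269 ± 18.2 FPKM (limma, log2 change 0.97, SE 0.09, adjusted p = 3.57e-04). Among 5 tested immune ligands related to class I or recognised by the same cells, 1 was up and 1 was down (40%, median change 0.11). Ulbp1, a class I-like ligand of the activating receptor NKG2D, rose from 1.04 ± 0.232 to 5.26 ± 0.548 FPKM (limma, log2 change 1.62, SE 0.13, adjusted p = 2.08e-04), and Pvrl2, a ligand of the receptor DNAM-1, fell by 0.66 (adjusted p = 0.00198).

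**Figure D5:**
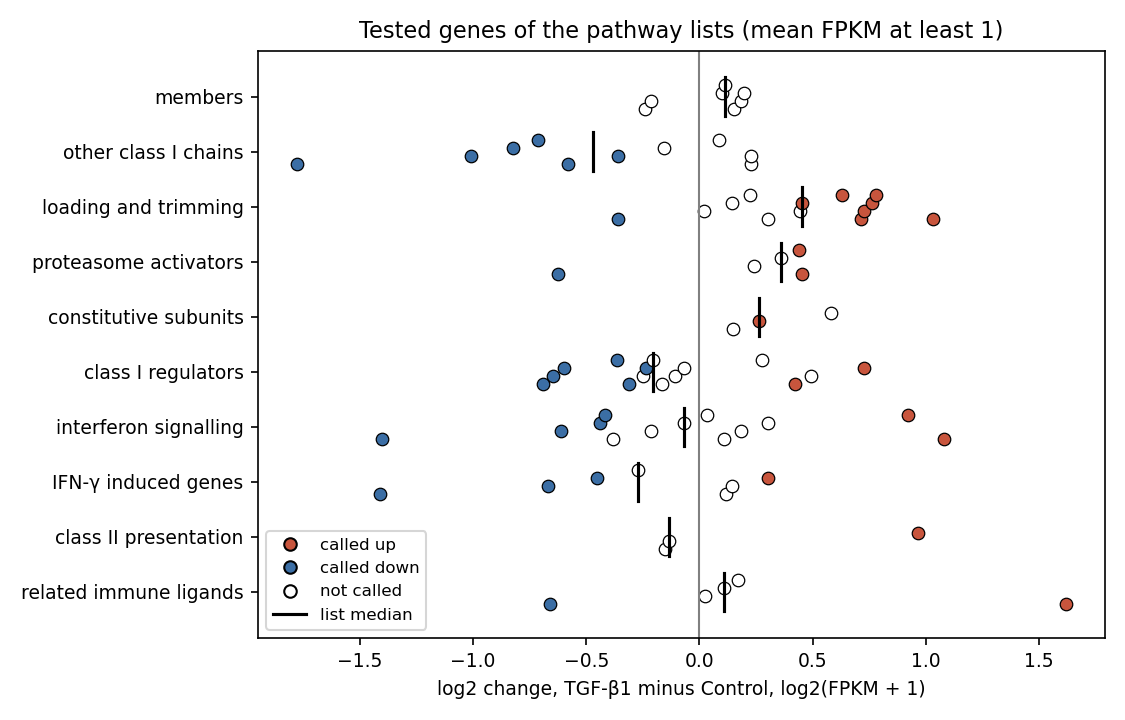
Log2 change (TGF-β1 minus Control, log2(FPKM + 1)) of every tested gene in the members and 9 related lists, red where called up, blue where called down and white where not called, with list medians as bars. No member was called, 6 of 10 other class I chains were called down and 7 of 13 loading and trimming genes up.

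Markers of several other cell types were lower after TGF-β1. In bulk RNA, fewer cells of a type and less RNA per cell cannot be told apart. The summed FPKM of the macrophage list was 87.4 to 118 in Control and 10.6 to 16.6 after TGF-β1, with 2 of 4 tested genes down. Cd14 made up most of that sum (94.3 ± 13.6 and 7.71 ± 0.819 FPKM), Csf1r was the other gene down, Cd68 and Fcer1g were not called (limma, log2 change -0.22 and 0.21), and Itgam, Lyz2, Aif1 and Laptm5 averaged at most 0.253 FPKM in either group. The pan-leukocyte marker Ptprc was at 0 in all Control libraries and at most 0.0448 FPKM after treatment. The tubular epithelial list summed to 147 to 182 FPKM in Control and 9.22 to 10.4 FPKM after TGF-β1, with 2 of 2 tested genes down. Cdh16 (130 ± 16.1 to 6.30 ± 0.564 FPKM) and Cldn2 (32.5 ± 0.831 to 0.579 ± 0.0251 FPKM) made up most of that sum, Lrp2 was called down without the filter, and Krt18 and Krt19 were called up without it (0.279 to 1.57 and 0.156 to 1.06 FPKM on average). The podocyte list was down in 4 of 4 tested genes (27.8 to 32.2 against 15.0 to 15.6 FPKM), 1 endothelial gene was tested and not called (4.48 to 6.60 against 3.15 to 4.73 FPKM), and no lymphocyte marker passed the filter (0.540 to 1.30 against 0.781 to 1.02 FPKM). The part of these cells in the levels of the class I genes was not tested.

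Across the 6 libraries, the tested members followed each other in part. Pearson's r of log2(FPKM + 1) was 0.963 between Tapbp and Psmb10 and 0.929 between H2-K1 and Tapbp, and it was -0.825 between B2m and H2-D1. The Tap1 to Tap2 value was -0.617. These values describe 6 points in 2 groups that share library preparation. Of 10784 protein-coding genes compared, the closest to each member by r were Vps8 for B2m (0.990), Bysl for H2-K1 (0.993), Kdm5a for H2-D1 (0.982), C77080 for Tap1 (0.991), Stxbp3a for Tap2 (0.985), Rb1 for Tapbp (0.991) and Micall2 for Psmb10 (0.994). Between 12 and 69 genes had an r of at least 0.95 with a given member.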

How the data were processed

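RNA of primary mesangial cells, in 3 Control and 3 TGF-β1-treated libraries, was sequenced by the authors, who filtered the reads, mapped them to mm9 with TopHat (TopHat2 2.0.11 in the submitters' processing notes) and estimated expression with Cufflinks. The deposited values are FPKM, 1 column per library, and no scaling between libraries is stated. The authors tested counts with DESeq, which was not possible on FPKM. Whether a row holds a gene or only its named transcript is not stated, nor is the use of strand. Strandedness and summing over transcripts can move the level of genes that overlap others.

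Groups came from the labels. Expression was compared with limma 3.58.1 in R 4.3.3 (lmFit, eBayes with trend) on log2(FPKM + 1), a scale that understates changes of low genes, for rows averaging 1 FPKM or more over the libraries, two-sided with Benjamini-Hochberg adjustment over all tested rows and a threshold of 0.05. Members under that mean were taken from the same fit without the filter. The fit was tested on simulated data. Exact permutation tests were used for subunit ratios. Positions came from GENCODE M1 on mm9, and 19699 of 19730 rows were found there by transcript identifier. Promoter windows came from RefSeq on GRCm38.p6. Depth was recovered from low FPKM values of genes with a single transcript, of which 99.4% to 99.8% lay within 0.1 of a whole number of fragments. An exact 0 can be a failed estimate.

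The members and gene lists were chosen with earlier results of these data known. Named genes were the 10 members, Psmb5, Psmb6, Psmb7, Psme1, Psme2, Irf1, Rfx5 and Ciita, the largest called rise and fall of each related list, and for each tested member the gene with the highest Pearson's r. Cell type markers and the other genes named beyond these were named after their values were seen, and some items that the rule selects are not reported here. Alternatives were pseudocounts of 0.1 and 0.5, no filter, a filter at 3 FPKM, eBayes without trend, 3 scalings, a threshold of 0.01, replicate terms and leaving out each library. Python 3.11.15, pandas 2.3.3, numpy 2.4.6, scipy 1.17.1, biopython 1.88 and matplotlib 3.10.9 were used.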

Additional observations from a re-analysis of the deposited data

How the results depend on the processing

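No tested member was called changed in 16 of 18 alternatives. The count was 1 without the filter (Nlrc5, which the filter otherwise leaves out of this count) and 1 after rescaling to protein-coding genes (H2-D1). At an adjusted p under 0.01, 3672 genes and 23 related genes were called, against 5721 and 39. Fits without 1 library called 4419 to 5446 genes, 0 members and 29 to 36 related genes. Directions turned for Tap2 (0.032 by quantile normalization, and -0.39 to 0.027 over the fits without 1 library, positive without Control replicate 3), Psmb8 (0.020 by quantile normalization), and B2m (-0.044), H2-K1 (-0.088), Tapbp (-0.0086) and Psmb10 (-0.074) after rescaling to protein-coding genes; the cause was not tested. Of 176 member changes recomputed, 157 kept direction and side of the threshold, 11 lost the call (all Nlrc5), 1 gained it and 7 turned. Without 1 library the Psmb8 to Psmb5 difference ran from -1.50 to -0.57 and that of Psmb10 to Psmb7 from -0.23 to -0.02. Depth limits Psmb8, Psmb9 and Nlrc5, which rest on few fragments.

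Replicate numbers are shared between the groups in the labels. Deviations from the group means correlated at 0.0921, 0.232 and 0.0853 for replicates 1, 2 and 3, and Control replicate 1 correlated best with TGF-β1 replicate 3 (0.117), so not every number correlated above 0.1 and the numbers were not taken to pair the samples. With the replicate block 5391 genes, 0 members and 37 related genes were called, the lowest adjusted p of a tested member was 0.0918, and the subunit ratios differed by -0.98 and -0.15. With replicate 2 as a batch term 5947 genes were called, and within replicates 1 and 3 alone 4195, with 0 members each time.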
